A study of Homo sapiens with 12 samples.

Results

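The HOXA cluster on chromosome 7 was examined gene by gene in A549 and PC9 cells, a pair of lines derived from human lung adenocarcinoma, a form of non-small cell lung cancer. Members were the rows of the count matrix whose Ensembl identifiers belong to HOXA2, HOXA3, HOXA5, HOXA6, HOXA7, HOXA9, HOXA11 and HOXA13, which are 8 of the 12584 genes in the matrix. Cells of each line carried a lentiviral pCDH vector that expresses the homeobox gene HOXC6 (A549-HOXC6 and PC9-HOXC6) or no insert (the empty control vector, here A549-NEO and PC9-NEO), and all groups were selected with neomycin after infection. Each of the 4 groups had 3 libraries of polyadenylated RNA, 12 in all. The labels number the replicates, and the study's methods call them independent. Neither says whether they were separate infections, cultures or extractions, so p-values measure the spread between these libraries, which may be technical. Each line stands for 1 tumour, and A549 cells were kept in RPMI medium and PC9 cells in DMEM, so the line and its medium cannot be told apart. Whether the infected cells were pools or clones is not given in the sources used here. The questions were how much of each HOXA gene each line made, how the lines differed, and whether the levels differed between HOXC6 and empty vector libraries.

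HOX genes encode homeodomain transcription factors that set position along the body axis of the embryo. They lie in 4 clusters, and in each the genes at the 3′ end are switched on early and in anterior tissues, while those at the 5′ end are switched on later and in posterior tissues. The homeodomain binds short sites with a TAAT core, and with the cofactors PBX and MEIS it binds longer composite sites. Retinoic acid activates the 3′ genes through retinoic acid receptors, Trithorax proteins and the histone methyltransferase DOT1L keep active genes on, Polycomb proteins keep silent genes off, and CTCF with cohesin divides the cluster into domains. In the embryonic lung the genes of the 3′ and central part, HOXA5 above all, take part in airway growth, and adult tumours often keep or alter such a pattern.

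All 8 genes lie on the minus strand. In GRCh37 the cluster occupies chr7:27132612-27239710 and holds 11 protein-coding genes in the annotation. From its 3′ end the members are HOXA2 (ENSG00000105996, chr7:27139973-27142305), HOXA3 (ENSG00000105997, chr7:27145803-27192202), HOXA5 (ENSG00000106004, chr7:27180671-27183300) and HOXA6 (ENSG00000106006, chr7:27185015-27190222). HOXA7 (ENSG00000122592, chr7:27193335-27197555), HOXA9 (ENSG00000078399, chr7:27202057-27214799), HOXA11 (ENSG00000005073, chr7:27220776-27224851) and HOXA13 (ENSG00000106031, chr7:27233122-27239710) follow toward the 5′ end. The canonical transcript has 6 exons in HOXA3 and 2 in each of the others. Exons of HOXA7 share 1507 of 2411 bp with the antisense gene HOXA-AS3 on the opposite strand, and exons of HOXA11 share 726 of 2669 bp with HOXA11-AS. The corresponding overlap was 745 bp for HOXA3, 505 bp for HOXA6, 422 bp for HOXA9 and 86 bp for HOXA13, and none for HOXA2 and HOXA5. Genes of the same strand share 482 bp with HOXA9 (a readthrough transcript and MIR196B), 400 bp with HOXA3 and 57 bp with HOXA6, and strand cannot separate these. The library kit keeps the strand, but the strand setting used in counting is not given in the sources used here, so the counts of overlapping genes are uncertain to that extent.

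The promoters of 3 of the 4 members that were found in 1 line and were at or near the detection limit in the other are shown because the results below turn on these genes. Each sequence is the 250 bases before the RefSeq transcript start, placed in GRCh37 by exact match and written 5′ to 3′ on the minus strand, and 7 of the 8 members had a RefSeq entry. Capitals mark matches on either strand to TAAT, the homeodomain core, or to TGATNNAT, a composite HOX and PBX site.
HOXA2, chr7:27142303-27142552, minus strand: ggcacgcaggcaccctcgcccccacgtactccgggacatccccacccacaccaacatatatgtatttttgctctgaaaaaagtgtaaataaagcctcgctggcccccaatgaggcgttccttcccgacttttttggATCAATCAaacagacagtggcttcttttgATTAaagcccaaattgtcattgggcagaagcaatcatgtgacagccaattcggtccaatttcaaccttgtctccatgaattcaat
HOXA9, chr7:27205157-27205406, minus strand: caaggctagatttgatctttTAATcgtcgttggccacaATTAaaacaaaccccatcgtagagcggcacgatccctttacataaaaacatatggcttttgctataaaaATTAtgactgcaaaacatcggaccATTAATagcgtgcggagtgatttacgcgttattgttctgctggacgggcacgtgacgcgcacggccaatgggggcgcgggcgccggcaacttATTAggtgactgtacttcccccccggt
HOXA13, chr7:27239711-27239960, minus strand: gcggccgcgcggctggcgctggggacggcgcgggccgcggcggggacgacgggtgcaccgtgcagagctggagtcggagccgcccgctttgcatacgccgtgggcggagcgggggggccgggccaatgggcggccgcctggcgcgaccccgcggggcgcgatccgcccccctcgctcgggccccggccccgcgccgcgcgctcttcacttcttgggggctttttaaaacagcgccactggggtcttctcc
The HOXA2 promoter held 1 match to each motif. Its composite match, ATCAATCA on the strand shown and TGATTGAT on the other, lies from base -114 to base -107 before the start. The HOXA9 promoter held 6 TAAT matches, a pair of them overlapping in the run ATTAAT, and the HOXA13 promoter held none of either motif. In the promoter of HOXA7, the other member found in 1 line only, neither motif had a match. Among 35116 promoter windows of the same length, 47.4% held TAAT and 6.47% held TGATNNAT. The HOXA13 window was 78.0% G and C with 40 CpG dinucleotides and the HOXA7 window 70.8% with 28, against a median of 58% and 11 over all windows. The HOXA2 window had 47.2% and 8 CpG, and the HOXA9 window 48.8% and 20. A match is a string of letters and not a measured binding site.

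The totals ran from 1212053 counts in A549-HOXC6 replicate 2 to 3286577 in PC9-HOXC6 replicate 3, so that 3 counts, taken here as the floor of detection, equalled 0.913 to 2.55 CPM. CPM are a gene's counts scaled to a common library total, with TMM factors between libraries, and the floors cover counting error only. HOXC6 itself is not analysed here, so its level could not serve to check the labels. The epithelial markers EPCAM, KRT7, KRT18 and CDH1, 4 of 8 in the table, were above the floor in every group, with summed levels of 7820 to 11700 CPM. Of 7 lung adenocarcinoma markers, NKX2-1 and SLC34A2 did not exceed the floor in A549, and SFTPB, SFTPC, SLC34A2 and FOXA2 did not exceed it in PC9. For blood, endothelial and fibroblast markers, 8 of 12 in the table, the summed level was 76.1 to 80.9 CPM in A549-NEO, 73.4 to 103 in A549-HOXC6, 29.6 to 46.2 in PC9-NEO and 39.5 to 54.2 in PC9-HOXC6. Of the 8, 2 exceeded the floor in at least 1 library in A549-NEO, 6 in A549-HOXC6 and 3 in each PC9 group. PTPRC, COL3A1 and PDGFRB did so only in A549-HOXC6, VWF in A549-HOXC6 and both PC9 groups, and COL1A2 and DCN in no group. Their part in the HOXA results was not tested. Fewer cells that express a gene and less RNA per cell cannot be told apart in bulk libraries.

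The lines differed in which HOXA genes they carried. A549-NEO cells carried HOXA2, HOXA7 and HOXA13, which were at or under the floor in PC9-NEO, and had more HOXA3, while PC9-NEO cells carried HOXA9, which was at the floor in A549-NEO. The 8 genes together reached 103 ± 6.78 CPM in A549-NEO, 108 ± 3.82 CPM in A549-HOXC6, 44.9 ± 0.364 CPM in PC9-NEO and 49.6 ± 5.14 CPM in PC9-HOXC6 (SD, n = 3 each). HOXA3 alone gave 53.5%, 54.4%, 51.6% and 56.7% of the summed counts in the same order. Between NEO libraries, 5 of the 6 members that passed the filter on low counts were called by edgeR's quasi-likelihood test, which here takes an adjusted p under 0.05 together with a log2 fold change beyond 1 in size, and DESeq2 called 5. Of these, 4 were higher in A549, where 19.6% of all 9076 genes tested were called higher, and 1 was higher in PC9, where 16.4% were called. Between HOXC6 libraries, 4 of the 5 members that passed the filter were called by edgeR. DESeq2, run without that filter, called 5, which were these 4 and HOXA13. It did not call HOXA5. Of the 4, 3 were higher in A549, against 18% of 8828 genes, and 1 in PC9, against 15.9%. The share of members called was above the background in both, but a member found in 1 line only can pass the filter through that line alone, so the share was not tested. For HOXA2, HOXA7, HOXA9 and HOXA13 the p-values between the lines are for that reason given as description only.

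**Figure D1:**
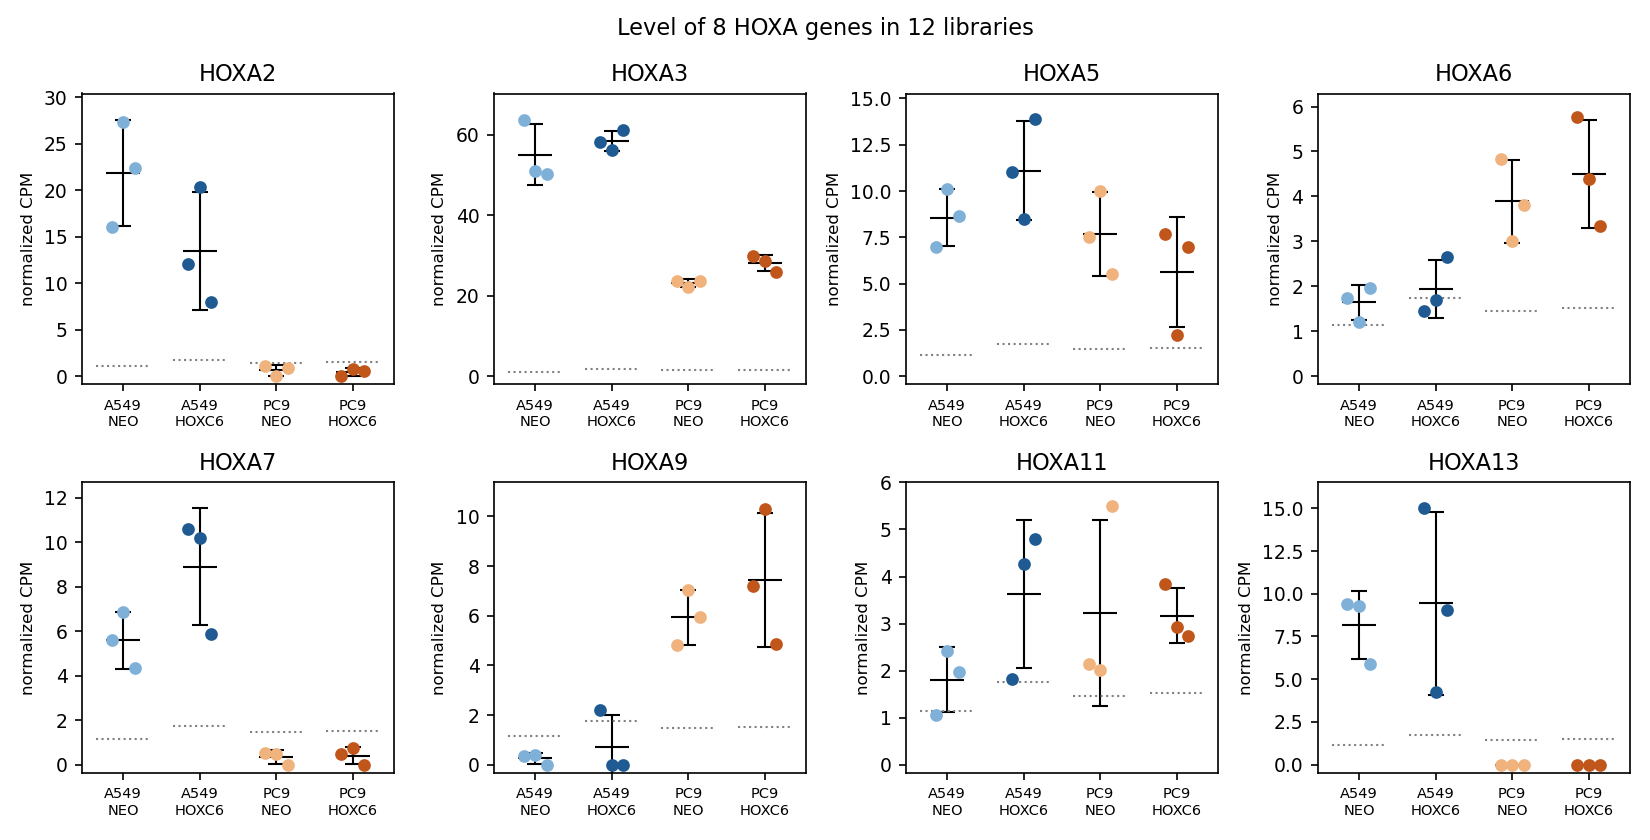
Level of each HOXA gene in normalized CPM (vertical axis, scaled separately in each panel) in 12 libraries (points), with the mean and SD of 3 libraries per group (bars) and the mean floor of 3 counts in the group (dotted lines). HOXA2, HOXA7 and HOXA13 lie above the floor only in A549, HOXA9 lies above it in all 6 PC9 libraries and in 1 A549-HOXC6 library, and HOXA3 is highest in A549.

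At the 3′ end, HOXA2, which patterns the hindbrain and the second pharyngeal arch, was an A549 gene in these libraries. Its normalized CPM were 16, 27.4 and 22.4 in replicates 1 to 3 of A549-NEO and 12.1, 20.4 and 7.99 in those of A549-HOXC6. The PC9-NEO libraries held 2, 0 and 2 counts and the PC9-HOXC6 libraries 0, 1 and 2 counts, all under the floor. Every A549 library thus lay above every PC9 library. The mean of A549-NEO was 15-fold the PC9-NEO floor, and that of A549-HOXC6 was 8.9-fold the PC9-HOXC6 floor. These folds are lower bounds of the line differences. The log2 fold changes fitted to the counts were 5 and 4.65 (edgeR adjusted p = 7.15e-12 and 2.18e-08).

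HOXA3, needed for the thymus and parathyroid glands, was the most abundant member and was found in all libraries. It measured 63.8, 51.1 and 50.3 CPM in A549-NEO and 58.1, 56.2 and 61.3 CPM in A549-HOXC6. In PC9-NEO it measured 23.7, 22.1 and 23.7 CPM and in PC9-HOXC6 29.8, 28.6 and 25.9 CPM. The lines did not overlap. HOXA3 was higher in A549 by a log2 fold change of 1.28 ± 0.16 (SE) with NEO and 1.06 ± 0.172 with HOXC6 (edgeR adjusted p = 6.3e-09 and 1.26e-06, n = 3 libraries a group). The second of these values lay close to the fold threshold and was 0.99 with library totals in place of TMM and 0.98 without PC9-HOXC6 replicate 3.

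HOXA5, which controls airway and lung growth in the embryo, was the most abundant central member per length in A549 and PC9-NEO, and of the 6 members tested it had the smallest difference between the NEO groups. Its CPM were 6.97, 10.1 and 8.65 in A549-NEO and 7.53, 10 and 5.5 in PC9-NEO, and these ranges overlapped. The log2 fold change was 0.19 ± 0.329 (95% interval -0.47 to 0.86, edgeR adjusted p = 0.604), so a difference beyond 1 in size lay outside the interval. In the HOXC6 libraries it measured 11, 8.51 and 13.9 CPM in A549 and 7.68, 2.2 and 7 CPM in PC9, which did not overlap. That difference, 0.87 ± 0.371, had an edgeR adjusted p of 0.0385 but was under the fold threshold, and with DESeq2 the adjusted p was 0.145. The PC9-HOXC6 value of 2.2 CPM rests on 3 counts. Without PC9-HOXC6 replicate 1 the difference was 1.04 and was called (edgeR adjusted p = 0.0388).

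HOXA6, a central gene of which less is known, was low in all groups and did not pass the filter in any comparison. It had 2 to 5 counts in the A549 libraries and 6 to 12 in the PC9 libraries. Its mean was 1.64 ± 0.39 CPM in A549-NEO, 1.94 ± 0.636 in A549-HOXC6, 3.89 ± 0.916 in PC9-NEO and 4.5 ± 1.21 in PC9-HOXC6 (SD, n = 3). Every PC9 library lay above every A549 library. The share of all genes that separate the lines in this way was not counted. Since 505 of the 1285 bp of HOXA6 exon overlap HOXA-AS3, the counts may include that gene if strand was not used. Without the filter the log2 fold change of A549 against PC9 was -1.16 with NEO and -1.2 with HOXC6, and neither passed the test (edgeR adjusted p = 0.0934 and 0.114).

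HOXA7, a homeodomain factor studied in blood progenitors and epidermis, was found in A549. The A549-NEO libraries measured 5.58, 6.85 and 4.33 CPM and the A549-HOXC6 libraries 10.6, 10.2 and 5.86 CPM. No PC9 library held more than 1 count. The A549 means were 3.81-fold the PC9 floor with NEO and 5.86-fold with HOXC6, as lower bounds of the line differences. The log2 fold changes fitted to the counts were 3.93 and 4.62 (edgeR adjusted p = 7.16e-06 and 2.23e-07). Since 1507 of its 2411 bp of exon overlap HOXA-AS3, these counts do not separate the pair if strand was not used. Without A549-NEO replicate 1 or 2 the gene did not pass the filter between NEO groups.

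In the posterior group, HOXA9, a regulator of blood stem cells that drives several leukaemias when overexpressed, had the opposite pattern. PC9-NEO libraries measured 4.84, 7.03 and 5.93 CPM and PC9-HOXC6 libraries 7.2, 10.3 and 4.87 CPM. The A549-NEO libraries held 1, 1 and 0 counts. The mean of PC9-NEO was 5.18-fold the A549-NEO floor, as a lower bound of the line difference. The log2 fold change fitted to the counts was -4.26 (edgeR adjusted p = 1.35e-06). In A549-HOXC6, replicate 1 held 6 counts, and replicates 2 and 3 held 0. The log2 fold change between HOXC6 libraries was -2.72 ± 0.628 (edgeR adjusted p = 0.000248), and without A549-HOXC6 replicate 1 it was -6.78. The A549 libraries left then held 0 counts, so -6.78 is set by the fit and is not a measured size. The sign was the same with and without that library.

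HOXA11, which shapes the forearm and the uterus, was low and overlapped between the lines with either vector. It held 3 to 6 counts in A549-NEO, 5 to 9 in A549-HOXC6, 4 to 13 in PC9-NEO and 4 to 9 in PC9-HOXC6, and did not pass the filter. Its means were 1.81 ± 0.698, 3.63 ± 1.58, 3.22 ± 1.98 and 3.17 ± 0.588 CPM in that order (SD, n = 3). Without the filter A549 against PC9 gave -0.84 with NEO and 0.08 with HOXC6 (edgeR adjusted p = 0.243 and 0.929).

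HOXA13, the last gene of the cluster, which patterns the digits, hindgut and genital tract, was found in A549 only. It measured 9.41, 9.26 and 5.9 CPM in A549-NEO and 15, 4.26 and 9.06 CPM in A549-HOXC6. All 6 PC9 libraries held 0 counts. The A549 means were 5.6-fold the PC9 floor of 3 counts with NEO and 6.22-fold with HOXC6, as lower bounds of the line differences. With NEO the gene was called, with a log2 fold change of 7.3 fitted against 0 counts (edgeR adjusted p = 2.17e-08). With HOXC6 it did not pass the filter, and without the filter the edgeR adjusted p was 5.62e-13 and with DESeq2 2.11e-06. With 0 counts in PC9, the gene enters any of these tests through A549 alone. The p-values are therefore given as description and not as support.

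Along the cluster the levels followed neither a single gradient nor a block. Compared per kilobase of exon, A549-NEO ran HOXA3 at 12.8 CPM per kb, HOXA2 at 9.41, HOXA5 at 4.98, HOXA7 at 2.32, HOXA13 at 1.62, HOXA6 at 1.28, HOXA11 at 0.678 and HOXA9 at 0.0826 CPM per kb. Neighbours in this order whose libraries overlapped were HOXA3 with HOXA2, HOXA7 with HOXA13, and HOXA13 with HOXA6. In PC9-NEO the order was HOXA3 at 5.38 CPM per kb, HOXA5 at 4.47, HOXA6 at 3.03, HOXA9 at 1.96, HOXA11 at 1.21, HOXA2 at 0.275, HOXA7 at 0.144 and HOXA13 at 0 CPM per kb. There HOXA3 overlapped HOXA5, HOXA5 overlapped HOXA6, HOXA9 overlapped HOXA11, and the last 3 were at the floor. In A549-HOXC6 the order began with HOXA3 at 13.6, HOXA5 at 6.46, HOXA2 at 5.78 and HOXA7 at 3.69 CPM per kb, and among all neighbours only HOXA3 and HOXA5 were separate. In PC9-HOXC6 it began with HOXA3 at 6.51, HOXA6 at 3.5, HOXA5 at 3.27 and HOXA9 at 2.45 CPM per kb. In the order of the members along the DNA, the near-absent HOXA9 of A549-NEO stood between HOXA7 and the low HOXA11, with HOXA13 beyond. In PC9-NEO the near-absent HOXA7 stood between HOXA6 and HOXA9. Cluster genes that are not members were left out of this order. The HOXA6 and HOXA7 counts may include HOXA-AS3 if strand was not used in counting.

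**Figure D2:**
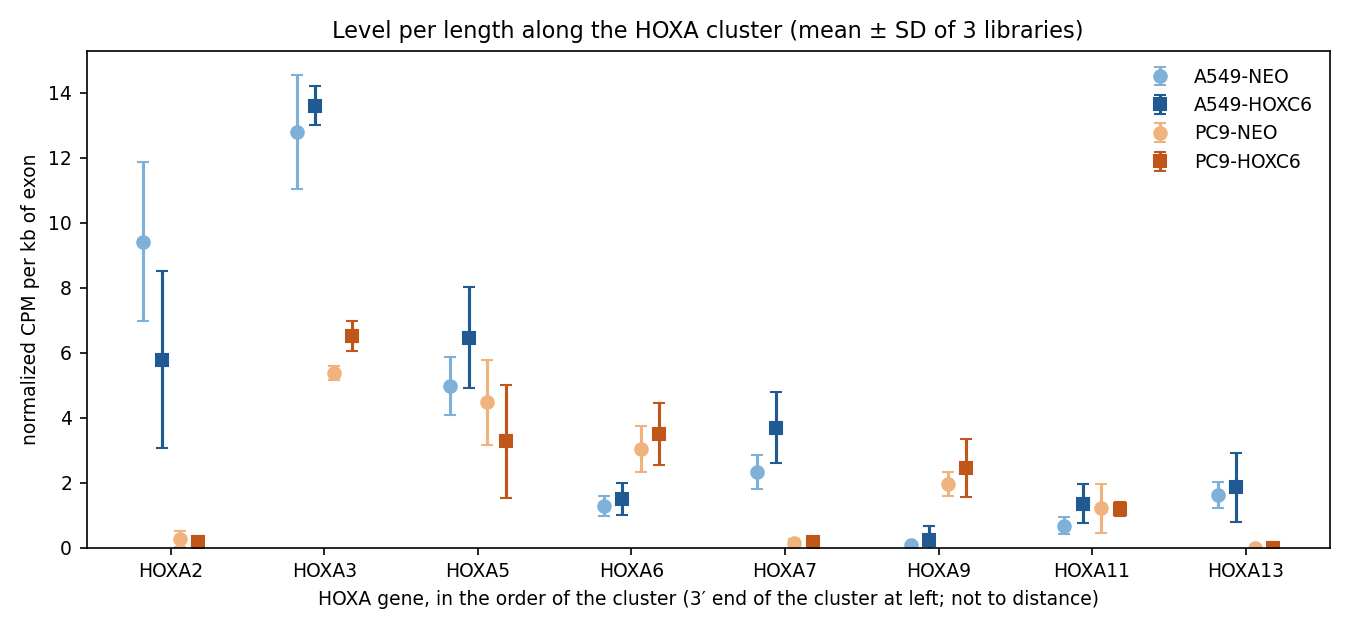
Level per kilobase of exon (vertical axis, normalized CPM per kb) of the 8 HOXA genes in their order from the 3′ to the 5′ end of the cluster (horizontal axis, not to distance), as mean and SD of 3 libraries in each group. A549 values are higher at HOXA2, HOXA3, HOXA7 and HOXA13, PC9 values are higher at HOXA6 and HOXA9, and the HOXA11 values of the lines overlap with either vector.

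HOXC6 libraries were then compared with empty vector libraries within each line. No HOXA member was called in either line. In A549, 0 of 5 members tested were called by edgeR and 0 by DESeq2, with 1, HOXA2, at an unadjusted p under 0.05 in edgeR. Among all 8771 genes tested in A549, 1.7% were called higher and 5.51% lower in HOXC6. At the adjusted p alone, without the fold criterion, 1 of 5 members passed, against 18.9% of all genes higher and 20.7% lower. In PC9, 0 of 3 members tested were called by edgeR and 0 by DESeq2, none was at an unadjusted p under 0.05, and the background was 0.962% higher and 3.56% lower, or 13.3% and 14.2% at the adjusted p alone.

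HOXA2 was the member nearest to a call in A549. Its log2 fold change was -0.82 ± 0.282 (95% interval -1.4 to -0.24, edgeR adjusted p = 0.0218), which is under the fold threshold, and the DESeq2 adjusted p was 0.106. The groups overlapped, since A549-HOXC6 replicate 2 at 20.4 CPM lay above A549-NEO replicate 1 at 16 CPM. After a correction for length and GC content the value was -1.11 and passed both thresholds (edgeR adjusted p = 0.00172), and over 15 alternatives it ran from -1.12 to -0.57 with adjusted p-values from 0.0014 to 0.135. Of the 6 alternatives that left out 1 library, 2 passed both thresholds, those without A549-NEO replicate 1 (-1.01, edgeR adjusted p = 0.0118) and without A549-HOXC6 replicate 2 (-1.12, edgeR adjusted p = 0.00529). The other 4 passed neither. The value was -0.63 without A549-NEO replicate 2 and -0.8 without replicate 3 (edgeR adjusted p = 0.135 and 0.0615), and -0.77 without A549-HOXC6 replicate 1 and -0.57 without replicate 3 (edgeR adjusted p = 0.0687 and 0.105). A549-HOXC6 replicate 2 was the shallowest library of all.

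For the other members tested in A549 the interval of the difference included 0. HOXA3 differed by 0.05 ± 0.142 (95% interval -0.24 to 0.34, edgeR adjusted p = 0.82), the narrowest interval of the set. HOXA5 differed by 0.37 ± 0.311 (-0.27 to 1.01, edgeR adjusted p = 0.359) and HOXA13 by 0.3 ± 0.353 (-0.42 to 1.03, edgeR adjusted p = 0.526). HOXA7 differed by 0.63 ± 0.367 (-0.12 to 1.39, edgeR adjusted p = 0.174). The upper bounds of these last 3 lie beyond 1, so the intervals include an increase of the size of the fold threshold. Without the filter HOXA6 differed by 0.17, HOXA11 by 0.86 and HOXA9, with its 6 counts in 1 library, by 1.71 (edgeR adjusted p = 0.906, 0.382 and 0.403).

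In PC9, HOXA3 differed by 0.27 ± 0.188 (95% interval -0.12 to 0.65, edgeR adjusted p = 0.311). The 3 HOXC6 libraries all lay above the 3 NEO libraries, although the test did not call the difference. The share of all genes that separate in this way was not counted. With the GC and length correction the HOXA3 difference was 0.04 (edgeR adjusted p = 0.912). HOXA5 differed by -0.31 ± 0.391 (-1.11 to 0.49, edgeR adjusted p = 0.601), and HOXA9 by 0.21 ± 0.387 (-0.58 to 1, edgeR adjusted p = 0.731). Both genes had overlapping groups. HOXA2 and HOXA7, at or under the floor with NEO, were at or under it with HOXC6 as well, and HOXA13 had 0 counts with either vector, so no HOXA gene that was at the floor in PC9-NEO exceeded it in PC9-HOXC6.

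**Figure D3:**
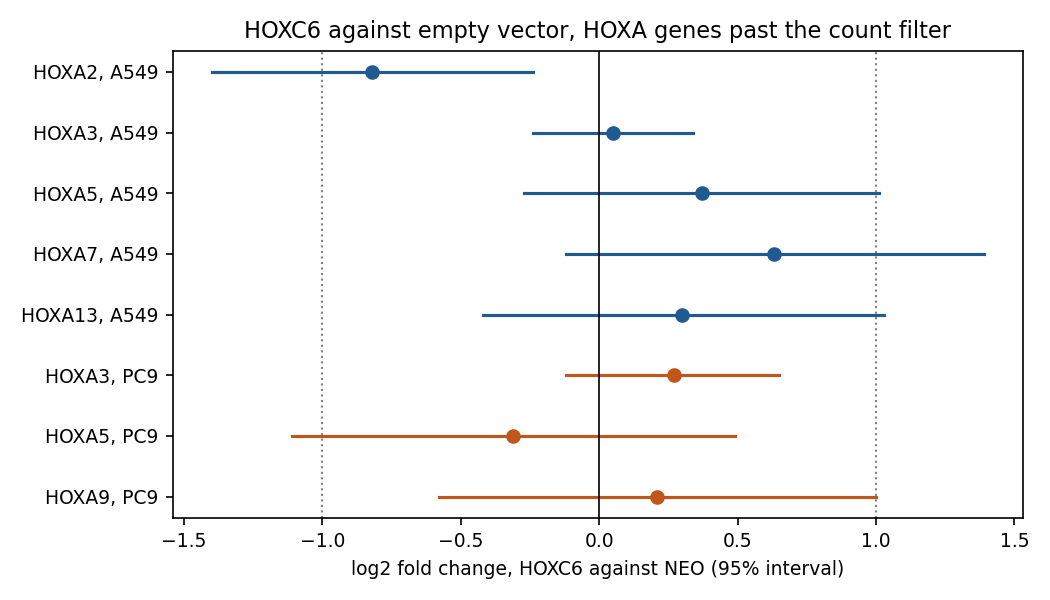
Log2 fold change of HOXC6 against empty vector (horizontal axis) with its 95% interval for the 5 HOXA genes tested in A549 and the 3 tested in PC9, from edgeR. Dotted lines mark the fold threshold of 1 in either direction. The interval lies wholly on one side of 0 for HOXA2 in A549, -1.4 to -0.24, and includes 0 for the others.

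The difference of the HOXC6 effect between the lines was tested as an interaction over 12 libraries. None of 6 members tested was called by edgeR and none had an unadjusted p under 0.05 in edgeR, against 2.76% of 9229 genes called with a more positive effect in A549 and 2.38% with a more positive effect in PC9. DESeq2 gave an adjusted p for 3 of the 6 (HOXA2, HOXA3 and HOXA5) and called none of these. For HOXA3, the member with the most counts, the A549 effect minus the PC9 effect was -0.17 ± 0.229 (95% interval -0.63 to 0.29, edgeR adjusted p = 0.663). For HOXA5 it was 0.73 ± 0.509 (-0.3 to 1.75, edgeR adjusted p = 0.345), which leaves room for a difference beyond 1. For HOXA2, HOXA7, HOXA9 and HOXA13 one line was at or near the floor, so that the fitted differences of effect rest on almost no counts there.

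Other HOX genes and cofactors were described from fixed lists. Of 30 other HOX genes 16 were in the table. HOXB13, a posterior gene of the prostate and hindgut, rose in A549-HOXC6 by 1.18 ± 0.19 (edgeR adjusted p = 1.82e-05), the only call among 8 tested (median of the list 0.32, of all genes 0), and was not called after correcting for length and GC content. In PC9 0 of 5 were called (median -0.02). Between NEO libraries HOXB8 and HOXB13 were higher in A549 by 5.75 and 4.12. HOXC11 and HOXC13 were higher in PC9, with log2 fold changes of -6.05 and -1.3, which makes 4 calls among 7 tested. The shares of all genes there were 19.6% called higher in A549 and 16.4% higher in PC9. Between HOXC6 libraries the calls were HOXB8 at 5.1, HOXB13 at 4.57 and HOXC11 at -5.41, against shares of all genes of 18% and 15.9%. HOXB8 and HOXB13 did not pass the filter within PC9, nor HOXC11 within A549. The sizes of their line differences therefore rest on low counts in that line, and no lower bounds were computed for them. Of 9 cofactors 7 were in the table, and 0 of 5 tested in A549 and 0 of 4 tested in PC9 were called. PBX3, which binds DNA with HOX proteins, was higher in A549 by 2.76 with NEO and 2.16 with HOXC6, and MEIS2 was higher in PC9, at -2.28 and -1.83.

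Genes around the cluster were taken as neighbours, and 9 of 9 were in the table. In A549, 0 of 6 tested were called, with a median of -0.55 against 0 for all genes. CBX3, a heterochromatin protein gene, stood at -0.78, TAX1BP1 at -0.72, SKAP2 at -0.63, JAZF1 at -0.47, HNRNPA2B1 at -0.18 and HIBADH at -0.06. In PC9, SNX10, a sorting nexin gene, fell by 1.13 (edgeR adjusted p = 0.0128), the only call among 7 (median -0.75). TAX1BP1 stood at -0.98, CBX3 at -0.87, HNRNPA2B1 at -0.75, JAZF1 at -0.38, SKAP2 at -0.15 and HIBADH at 0.25. The neighbours' medians moved toward 0 after correcting for length and GC content, to -0.29 in A549 and -0.44 in PC9. SNX10 was still called in PC9 after this correction. The median GC content of the neighbours tested was 42.9% and 42.8%, against 48% for all genes. Between NEO libraries SNX10 (-1.53) and HNRNPA2B1 (-1.46) were higher in PC9, and none of 7 was called higher in A549. For all genes tested the shares were 16.4% and 19.6%. Between HOXC6 libraries 0 of 6 neighbours were called. EVX1, next to HOXA13, and CREB5 did not pass the filter in any of these comparisons.

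Of the regulators known for the cluster, Trithorax and DOT1L activators had 14 of 19 genes in the table. KMT2A, the methyltransferase that maintains HOXA expression, fell by 1.01 in A549-HOXC6 (edgeR adjusted p = 1.39e-06), 1 of 14 tested, and 0 of 14 were called in PC9. KMT2A was not called once GC content and length were corrected for. Of 21 Polycomb repressors 16 were in the table. BMI1, a subunit of the complex that holds HOX genes silent, fell by 1.63 in A549-HOXC6 (edgeR adjusted p = 0.000594), 1 of 16, and it was also called after the correction, while 0 of 16 were called in PC9. The medians were -0.2 and -0.1 for the activators and -0.08 and 0.02 for the repressors in A549 and PC9. Between NEO libraries the Polycomb methyltransferase EZH1 was higher in A549 by 2.66 and EZH2 was higher in PC9, at -2, with CBX7 at -1.3 and the activator PSIP1 at 1.4 in A549. Between HOXC6 libraries EZH2 stood at -2.02, BMI1 at -1.64, CBX7 at -1.5, EZH1 at 1.48, PHF19 at 1.34, PSIP1 at 1.61, KAT7 at 1.12 and KMT2A at -1.02, all called. The HOXC6 effect differed between lines for PHF1 (-1.19, edgeR adjusted p = 1.31e-06) and EZH1 (-1.11, edgeR adjusted p = 0.00528). Within the lines, which gave no call for either gene, PHF1 stood at -0.46 in A549 and 0.78 in PC9, and EZH1 at -0.75 in A549 and 0.42 in PC9.

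CTCF and cohesin genes had the most calls of the lists under HOXC6, and all 10 were tested. In A549, 4 fell, among them NIPBL, the loader of cohesin, at -1.63, SMC3, a core subunit, at -1.58, and PDS5B at -1.42 (edgeR adjusted p = 6.11e-06, 2.44e-06 and 0.00131). In PC9, 4 fell, among them NIPBL at -2.25, SMC3 at -1.81 and PDS5B at -1.13 (edgeR adjusted p = 3.18e-11, 2.05e-06 and 0.000108). Among all genes tested, 5.51% were called lower in A549-HOXC6 and 3.56% in PC9-HOXC6. The medians were -0.81 and -0.86, against 0 for all genes. The median GC content of the list was 38.9%, against 48% for all genes, and after correcting for length and GC content 1 gene (NIPBL) was called in A549 and 2 (NIPBL and SMC3) in PC9, with medians of -0.4 and -0.45. The part of GC content in these calls was not tested beyond this correction. Between NEO libraries 3 of 10 were called, all higher in PC9, PDS5B at -1.36, NIPBL at -1.25 and PDS5A at -1.18. Between HOXC6 libraries 2 of 10 were called, PDS5B at -1.65 and PDS5A at -1. Of all genes tested, 16.4% and 15.9% were called higher in PC9 in these comparisons. After the correction the 3 calls between NEO libraries remained, and between HOXC6 libraries only PDS5B was called.

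**Figure D4:**
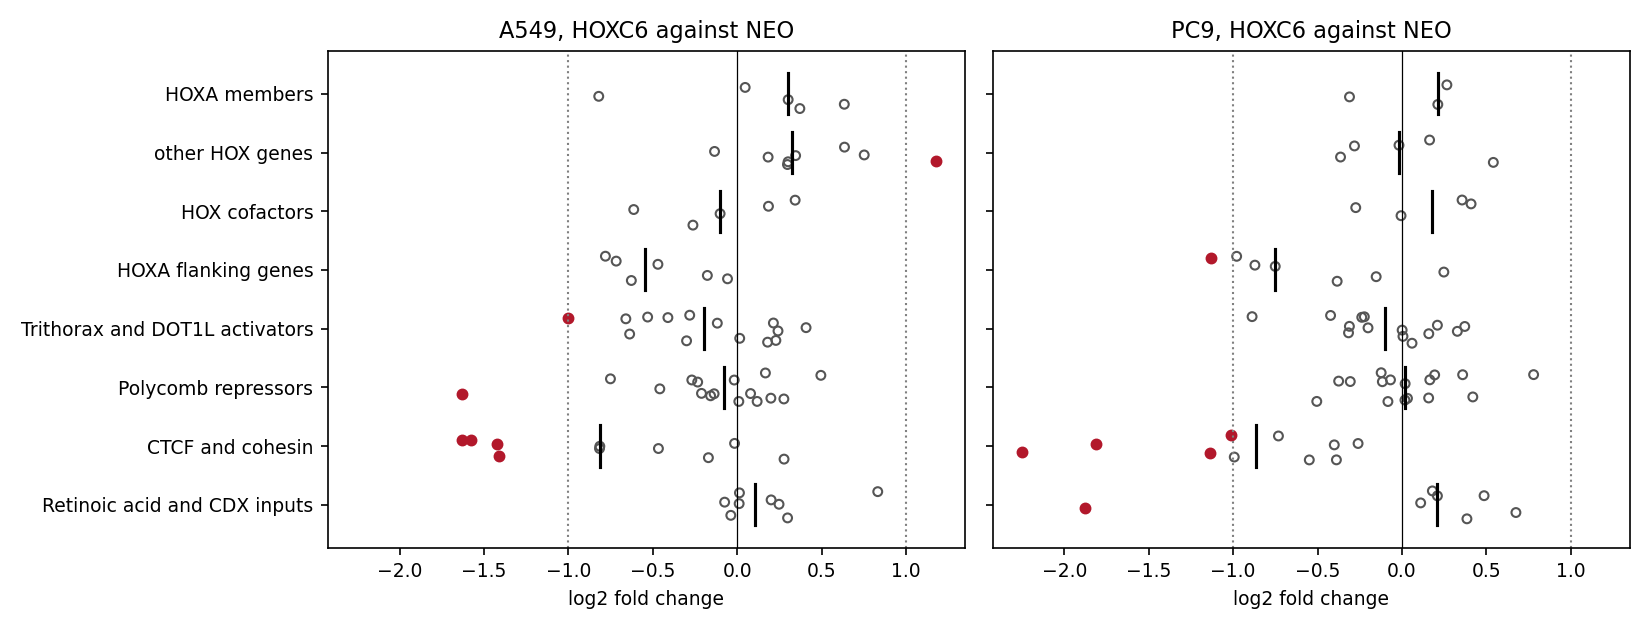
Log2 fold change of HOXC6 against empty vector (horizontal axis) for each tested gene of 8 gene lists (rows) in A549 (left) and PC9 (right), on 1 scale. Filled points were called, open points were not, short black lines are list medians and dotted lines mark the fold threshold. No HOXA member is filled, and the CTCF and cohesin genes hold 4 filled points in each line.

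Retinoic acid and CDX inputs had 15 of 19 genes in the table. Under HOXC6, 0 of 8 tested were called in A549 (median 0.11), and in PC9 ALDH1A1, a retinaldehyde dehydrogenase, fell by 1.88 (edgeR adjusted p = 1.14e-07), 1 of 7 (median 0.21). The ALDH1A1 effect differed between the lines by 1.88 (edgeR adjusted p = 2.63e-10). Between NEO libraries all 8 tested were called, 7 higher in A549 and 1 higher in PC9 (median 1.98 against 0.02 for all genes). Among all genes tested there, 19.6% were called higher in A549 and 16.4% higher in PC9. ALDH1A1 was higher in A549 by 6.93 ± 0.0719 (SE), the receptor RARB by 3.72 ± 0.503 and the retinol dehydrogenase RDH10 by 2.18 ± 0.141. CRABP2, which carries retinoic acid to its receptors, was higher in PC9, at -5.18. Between HOXC6 libraries 6 were higher in A549, with ALDH1A1 at 8.76 ± 0.132, RARB at 4.72 ± 0.579 and RDH10 at 2.26 ± 0.161. CRABP2 was higher in PC9, at -5.91. These genes were not compared with the floor, so the sizes may rest on low counts in 1 line. Whether these line differences bear on the HOXA genes was not tested.

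Finally, genes outside the HOX family were ranked by how closely their centred log2(CPM + 1) values followed those of HOXA3 over the 12 libraries, among 8759 genes with a mean of at least 5 CPM. The closest was PFN2, a profilin that binds actin, with a root mean square difference of 0.0942 and means of 135 CPM in A549 and 61.2 CPM in PC9. RPL18, a ribosomal protein gene, followed at 0.11, with 2440 and 1110 CPM, and EEF1B2, a translation elongation factor gene, at 0.112, with 377 and 177 CPM. The median over all genes was 0.723. The likeness is a description over libraries that fall into a pair of lines.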

How the data were processed

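RNA was sequenced by the authors as paired reads, aligned with HISAT2 2.1.0 to GRCh37.p13 and counted with HTSeq 0.9.1, per the labels (the submitters' processing notes also name bcl2fastq 2.19 and DESeq2). The deposited values are the authors' raw counts per gene, with no normalization and no pooling of replicates. The annotation release, strand setting and counting mode are not given in the sources used here. Of 12584 genes, 12463 were in the GENCODE annotation of GRCh37, and 1 incomplete last row was left out. The table holds part of the genes, so totals, scaling and adjustment refer to that part. It also holds 1 further HOXA gene that is not reported here.

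Genes were filtered with filterByExpr (minimum count 10), scaled by TMM, and tested with edgeR 4.0.16 (R 4.3.3) by the quasi-likelihood test with Benjamini-Hochberg adjustment over all genes, on the 6 libraries compared, or on all 12 for the difference between lines. A call needed an adjusted p under 0.05 together with a log2 fold change beyond 1 in size, the study's thresholds. Where every library of a group held 3 counts or fewer, folds against it are lower bounds, computed from the mean of its library floors. Replicates were compared by chi-square, and none was a repeat of another. The tests were tested on simulated data. Alternatives were DESeq2 1.42.0, RLE factors, library totals, no filter, 1 model over 12 libraries, a replicate block, a GC and length correction (mgcv 1.9.3), each library left out, and, chosen after seeing the data, no fold criterion and canonical transcript lengths.

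Members and gene lists were chosen with earlier results of these data known. All 8 members are named. From every other list except those of cell type markers, the text names up to 3 called genes a direction with the largest change. It also names the flanking genes in the table and the 3 genes closest to the member highest per length. The marker lists are described by level and detection only, although some markers were called between the lines.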

Additional observations from a re-analysis of the deposited data

How the results depend on the processing

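The number of HOXA members called was 0 of 5 for HOXC6 against NEO in A549, and 1, HOXA2, without the fold criterion (an alternative chosen after seeing the data), with a correction for length and GC content, and with that correction and the replicate block. Leaving out each library in turn gave 0 to 1 there, 0 in PC9, 4 to 5 between NEO groups and 4 to 6 between HOXC6 groups. The set of members past the filter changed between these runs. Between HOXC6 groups, HOXA13 passed and was called without A549-HOXC6 replicate 2 and without each PC9-HOXC6 library in turn. HOXA3 was not called without PC9-HOXC6 replicate 3, at 0.98. With library totals only, 3 members were called between HOXC6 groups, since HOXA3 stood at 0.99. HOXA3 in A549 was -0.24 with the GC and length correction and -0.25 with the block added, and from -0.01 to 0.16 with each library left out. Signs also turned without 1 library for HOXA13 in A549 (-0.25 without A549-HOXC6 replicate 1, range to 0.54), HOXA9 in PC9 (-0.01 without PC9-HOXC6 replicate 2, range to 0.52) and HOXA5 between NEO groups (-0.02 without PC9-NEO replicate 3, range to 0.42). In the difference between lines they turned for HOXA9 (-2.65, range to 2.12) and HOXA13 (-0.2, range to 0.6) without A549-HOXC6 replicate 1, for HOXA2 (0.23, range from -0.78) without PC9-NEO replicate 2 or PC9-HOXC6 replicate 3, and for HOXA7 (-0.07, range to 1.37) without the latter. None of these values was called. HOXA5 between HOXC6 groups was called, at 1.04, without PC9-HOXC6 replicate 1. HOXA7 did not pass the filter between NEO groups without A549-NEO replicate 1 or 2. The cause was not tested.

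Deviations of same-numbered libraries from their group means correlated at -0.0474 to 0.0554. For libraries of other numbers the mean correlations were -0.00749 to 0.00537. Whether same-numbered libraries shared a culture or preparation was not tested. With the replicate block 0 members were called in A549, 0 in PC9, 5 between NEO groups, 4 between HOXC6 groups and 0 in the difference. All genes called numbered 632 in A549 and 381 in PC9, 3469 and 2316 without the fold criterion, 325 and 185 with the GC and length correction, and 324 and 189 with the block added. HOXA6, HOXA9, HOXA11 and the genes at the floor rest on few counts, and canonical lengths moved levels per length, for HOXA3 in A549-NEO to 18.2 CPM per kb.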
